A study of Mus musculus with 12 samples.

Results

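Ribosome footprints were set against RNA, gene by gene, in the left ventricle of adult wild-type (WT) mice. The comparison used 6 of the 12 libraries of the series, 3 of footprints and 3 of RNA, and set same-numbered libraries beside each other. Of the 21659 nuclear names in the count tables, 6623 had enough counts in both assays to be tested. The study sequenced hearts of WT and Rpl3l-/- mice in biological triplicate. Rpl3l-/- mice lack a striated-muscle paralog of the ribosomal protein Rpl3, and their 6 libraries serve here only to give values in other animals. Ventricle was homogenised in a polysome buffer containing cycloheximide, which holds ribosomes in place on the mRNA. One share of the lysate was digested with RNase I, and the protected fragments became the footprint libraries. RNA from undigested lysate was selected by its poly(A) tail and made into stranded libraries.

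A translating ribosome covers a short stretch of mRNA, so the number of footprints on a gene depends on how much of its mRNA there is and how densely ribosomes load it. Dividing footprints by RNA gives a ratio that is relative to the other genes of the same libraries. The ratio estimates ribosome load per mRNA only so far as both assays capture and count the mRNA of each gene alike. The RNA was selected by its poly(A) tail, while footprints are short protected fragments, and the region counted is not given. Whether a high or low ratio reflects ribosome load or such differences between the assays was not tested. In heart muscle, mRNAs of contractile and energy-producing proteins make up much of the pool. mRNAs of ribosomal proteins carry a terminal oligopyrimidine (TOP) motif, a run of C and T that begins with C at the transcript start, through which their translation is held back when growth signals are low.

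The WT footprint libraries held 3740559 to 4792340 nuclear counts and the RNA libraries 3532829 to 3908620. Names starting with mt-, which are encoded in mitochondrial DNA, took 53.4% to 58.2% of RNA counts and 2.28% to 4.08% of footprint counts and were left out before scaling. Levels are given as CPM, the usual scaling of counts by the library total, here the nuclear total, and 3 counts correspond to 0.626 to 0.849 CPM. Rpl3l was at 826, 772 and 852 CPM in WT RNA libraries 1, 2 and 3 and at 98.1, 98.3 and 110 CPM in Rpl3l-/- RNA, and its footprints were at 196, 263 and 248 CPM in WT and 9.18, 4.48 and 13.3 CPM in Rpl3l-/-. All 10 cardiomyocyte markers were tested, and they summed to 112854 to 116222 CPM of RNA. Of the skeletal muscle markers 2 of 10 passed the filter, of the adipocyte markers 4 of 7 and of the 6 Schwann and neuronal markers none. The atrial marker list, in which Nppa and Myl7 lead, summed to 4106 to 5701 CPM of RNA. RNA library 3 stood apart from the other RNA libraries. Its chi-square per degree of freedom was 23.0 against library 2 and higher against library 1, while libraries 1 and 2 gave the lowest value of all pairs. Within the footprint libraries these values were 12.4 to 18.3, so no library was a copy of another.

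The ratio of footprints to RNA varied over a wide range. The median of all genes tested was a log2 ratio of 0.51, or 1.42-fold more footprint CPM than RNA CPM, and the 5th and 95th percentiles were -2.55 and 3.58, a 69.8-fold span. In edgeR's quasi-likelihood fit with Benjamini-Hochberg adjustment, 4882 of 6623 genes (73.7%) passed an adjusted p threshold of 0.05. Of these, 3115 (47.0% of genes tested) were higher in footprints and 1767 (26.7%) were lower. Beyond a 2-fold difference, tested with edgeR's glmTreat, 2013 genes (30.4%) were higher and 957 (14.4%) lower. Footprint and RNA libraries did not overlap for 3153 genes in the higher direction (47.6%) and 1859 in the lower (28.1%).

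The ratio is relative, and the line that parts higher from lower depends on the scaling. With TMM factors the median moved by -0.46 on the log2 scale, and 2481 of the 6623 genes were higher and 2369 lower. List counts with TMM factors below stand against these counts, not against the shares of the main fit. With mitochondrial names kept in the totals it moved by 1.14, giving 4689 higher and 698 lower. Dividing footprints by coding length and RNA by transcript length gave 3978 higher and 1136 lower. The order of genes is not affected by a common shift, so gene lists are described below by their median minus the median of all genes tested. The 3 same-numbered pairs gave like ratios, with correlations of 0.934 to 0.946 across the 6623 genes and a median SD over pairs of 0.38 per gene. The SD of ratios across genes was 2.07, 1.95 and 1.73 in pairs 1, 2 and 3, narrowest in the pair that holds RNA library 3. Genes are not independent replicates, and the genes of a pair share its libraries.

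**Figure D1:**
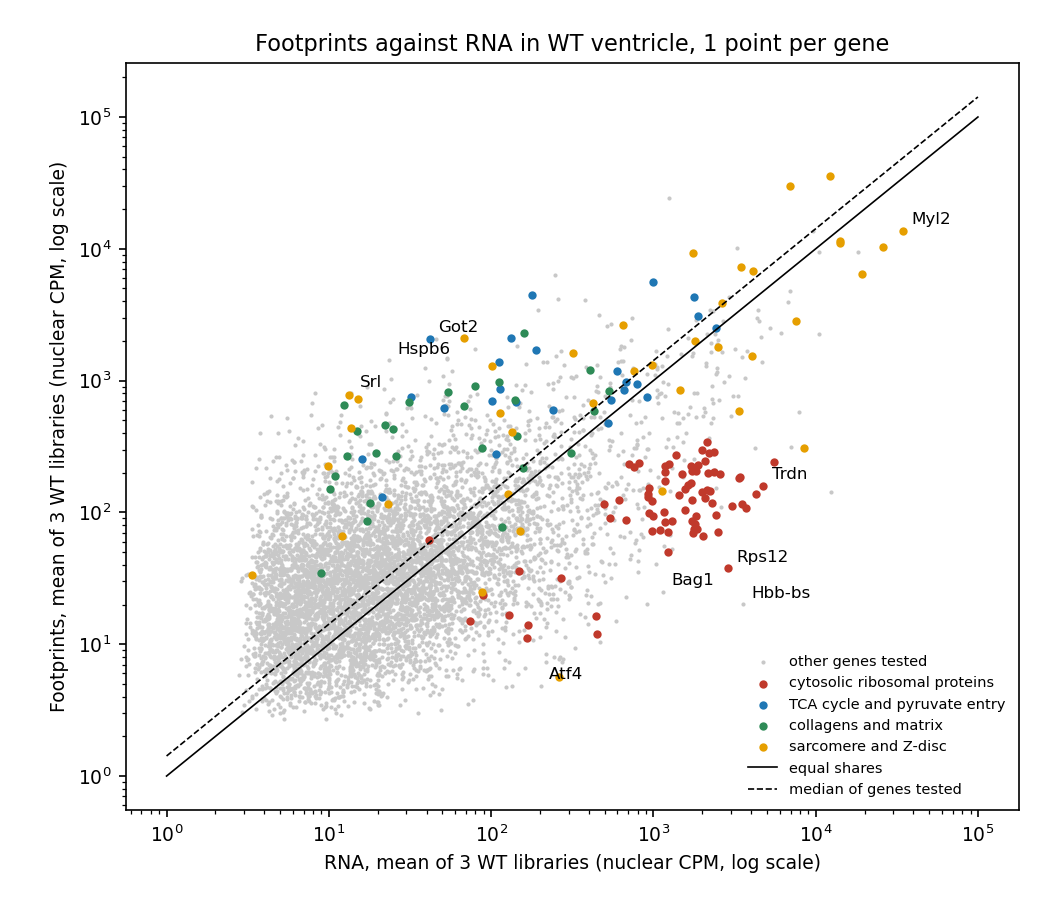
Mean footprint level against mean RNA level of each gene tested (nuclear CPM, both axes logarithmic, 3 WT libraries each), with the lists of cytosolic ribosomal proteins, TCA cycle, matrix and sarcomere in colour. The solid line marks equal shares and the dashed line the median of all genes, 1.42-fold; 76 of the 77 ribosomal protein genes lie below the solid line and Rpl41 above it.

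Many of the genes with few footprints for their RNA encode proteins of the cytosolic ribosome. All 31 tested genes of the small subunit, which decodes the mRNA, were lower in footprints, and so were 45 of 46 of the large subunit, which joins amino acids. Over all genes tested, 26.7% were lower. Relative to all genes, the median log2 ratio was -4.41 for the small subunit (21.3-fold less) and -3.95 for the large (15.4-fold less). These counts stayed at 31 and 45 with TMM factors. Across the 77 genes the log2 ratio ran from -6.31 for Rps12 to 0.54 for Rpl41, the one gene not called. Per length, the median ribosomal protein gene had 1643 CPM of RNA per transcript kilobase and 271 CPM of footprints per coding kilobase. Several ribosomal protein genes have near-identical pseudogenes, so their counts are uncertain, and 7 members of these lists did not reach the filter. Of these, Rps23 had 2186, 2122 and 1764 RNA counts against 0, 5 and 9 footprint counts. Rpl36al had 332, 317 and 246 RNA counts against 0, 6 and 5 footprint counts. The filter thus left out genes with almost no footprints, and the range given covers tested genes only.

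Pyrimidine runs lie near the annotated start of some of these genes. Below are 30 bases near the RefSeq transcript start of 3 of the lowest genes, chosen because they hold such a run and their values are given next, 5′ to 3′, with the longest pyrimidine run that begins with C in capitals (RefSeq, GRCm38.p6).
Rps12: caccgccggCCTTTTCCCCTgccgccgccg
Rps10: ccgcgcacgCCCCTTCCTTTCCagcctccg
Rpl31: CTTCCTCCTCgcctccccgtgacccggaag
They lie at chr10:23787181-23787210 on the minus strand, chr17:27635227-27635256 on the minus strand and chr1:39367836-39367865 on the plus strand. The runs are 11, 13 and 10 bases long and begin at offsets of 8, -3 and -15 from the first annotated base. None begins at that base itself, as a TOP motif does by definition, and the Rpl31 run ends before it. A run of at least 8 C or T that begins with C lay within 15 bases of the start, on the transcribed strand, in 27 of 57 tested ribosomal protein genes with a RefSeq start (47.4%) and in 819 of 5349 tested genes (15.3%). A match describes the letters, and annotated starts can be off by some bases.

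Rps12, a small-subunit protein, had 3236, 3152 and 2278 CPM of RNA in libraries 1, 2 and 3 and 20.9, 48.1 and 44.4 CPM of footprints. Every footprint library was far below every RNA library, and the log2 ratio was -6.31 (SE 0.32, edgeR adjusted p = 9.1e-14), or 79.3-fold less. Rps10, also of the small subunit, had 1769, 1815 and 1375 RNA counts against 31, 60 and 60 footprint counts (log2 ratio -5.27, SE 0.31). Rpl31, of the large subunit, had 8334, 7398 and 6628 RNA counts against 146, 366 and 311 footprint counts (-5.06, SE 0.33). For these genes footprint library 1 was the lowest of the 3. Summed over the large-subunit list, footprints were at 4412, 8291 and 6059 CPM in libraries 1, 2 and 3 while RNA was at 71482, 66747 and 62783 CPM. Rpsa, the laminin-receptor protein of the small subunit, had 5259, 4825 and 4053 CPM of RNA and 87.4, 246 and 146 CPM of footprints (-4.99, SE 0.30). The other ribosomal protein genes among the 15 lowest were Rpl26 (-5.16), Rplp1 (-5.13), Rps14 (-4.99), Rpl23 (-4.95) and Rpl29 (-4.94).

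The paralogs Rpl3 and Rpl3l, which take the same place in the large subunit, had different ratios. Rpl3 had 880, 1019 and 934 CPM of RNA and 69.1, 122 and 105 CPM of footprints, a log2 ratio of -3.29 (SE 0.25). Rpl3l, the muscle form, was at a log2 ratio of -1.80 (SE 0.23). For both genes every footprint library was below every RNA library. The difference between the paralogs was not tested. Rpl41, which encodes one of the shortest proteins known, had 33.2, 87.7 and 64.1 CPM of footprints and 39.0, 58.3 and 27.1 CPM of RNA, which overlap (log2 ratio 0.54, SE 0.27, edgeR adjusted p = 0.073).

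Translation factors whose mRNAs are known to carry a TOP start were low as well, though less far. Of 24 tested, 19 were lower and 3 higher in footprints, with a median of -1.79 relative to all genes. Among all genes tested, 26.7% were lower and 47.0% higher. A pyrimidine run as counted above lay near the start in 6 of the 18 with a RefSeq start (33.3%), against 15.3% of tested genes. Tpt1, the translationally controlled tumour protein, was lowest, with 7069, 6800 and 7356 CPM of RNA and 166, 541 and 237 CPM of footprints (log2 ratio -4.68, SE 0.31). Eef1b2, an exchange factor for eEF1A, followed at -4.27 (SE 0.27). Elongation factors Eef1a1 and Eef2 were at -1.65 (SE 0.23) and -1.16 (SE 0.28), and the poly(A)-binding protein Pabpc1 at -2.68 (SE 0.25). Members of a list other than its highest, its lowest and its most abundant in RNA were named after their values were seen. Eif2s3x, the gamma subunit of eIF2, was at the other end, with 5.53, 4.81 and 6.14 CPM of RNA and 77.6, 99.2 and 102 CPM of footprints (4.07, SE 0.29). The remaining initiation, elongation and release factors were spread on both sides: 16 of 31 were higher and 7 lower (13 each with TMM factors), and their median was 0.12 above that of all genes. The muscle and neuron form Eef1a2, with 2009, 2703 and 2037 CPM of footprints and 2006, 1580 and 2860 CPM of RNA, was at 0.09 (SE 0.24) and was not called.

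Of the 15 lowest genes among those averaging 50 counts or more in each assay, 9 encode ribosomal proteins. Below that average, Myh7b (-5.51), Atf4 (-5.43), Ftl1 (-5.07) and Egfl7 (-5.07), described further on, were lower than several of the 15. The lowest of all genes tested was Hbb-bs, the adult beta-globin of red cells. It had 1943, 3734 and 5080 CPM of RNA in libraries 1, 2 and 3 and 5.43, 28.3 and 26.5 CPM of footprints. Its log2 ratio was -7.64 (SE 0.33), or 200-fold less. The neighbouring beta-globin Hbb-bt was at -4.62 (SE 0.27), and the alpha-globins Hba-a1 and Hba-a2 at -1.90 and -2.06 (SE 0.23 each). All 5 erythroid markers tested were lower in footprints, against 26.7% of all genes. Summed over that list, RNA was at 3717, 7533 and 10542 CPM in libraries 1, 2 and 3 and footprints at 358, 941 and 1600 CPM, and library 1 was lowest in both assays. The part of the amount of blood in these ratios was not tested. The globin copies share sequence, and in bulk tissue fewer cells of a type and less RNA per cell cannot be told apart.

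Gm20594, a gene model on chromosome 6, was second lowest at -6.42 (SE 0.29), with 15764, 13725 and 7578 CPM of RNA and 119, 197 and 111 CPM of footprints. Of its 422 windows of 28 bases, 49 occur also in the mitochondrial rRNA transcript mt-Rnr2, so its counts are uncertain. Bag1, a co-chaperone of Hsp70, had 1138, 1110 and 1186 CPM of RNA and 21.9, 34.0 and 19.5 CPM of footprints (-5.55, SE 0.28). Zcrb1, an RNA-binding protein of the minor spliceosome, was at -5.46 (SE 0.28). Doc2g, of the double C2-domain family, had 712, 664 and 647 CPM of RNA and 33.2, 11.8 and 23.8 CPM of footprints (-4.96, SE 0.29). Under the same count minimum, the gene just outside the 15 was Rps3a1 at -4.83.

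At the other end, among genes averaging 50 counts or more in each assay, Hspb6, Srl, Got2, Nedd4 and Pdlim5 had the most footprints for their RNA. The 15 highest of these genes had log2 ratios from 4.97 to 6.02, which is 31.3-fold to 65.1-fold. Hspb6, a small heat-shock protein of muscle, led with 1415, 1643 and 1206 CPM of footprints against 13.8, 17.5 and 39.1 CPM of RNA (6.02, SE 0.34, edgeR adjusted p = 2.6e-13). RNA library 3 was the highest of its group, and no RNA library came near a footprint library. Hspb7, another small heat-shock protein of heart, was at 5.60 (SE 0.30). Srl, sarcalumenin, which binds calcium in the sarcoplasmic reticulum, had 688, 968 and 746 CPM of footprints and 9.67, 16.1 and 15.4 CPM of RNA (5.88, SE 0.28).

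Got2, the mitochondrial aspartate aminotransferase of the malate-aspartate shuttle, had 2144, 2043 and 2050 CPM of footprints and 26.3, 28.3 and 70.6 CPM of RNA (5.78, SE 0.32). Acsl1, which activates long-chain fatty acids, was at 5.01 (SE 0.27), and Hadh, a dehydrogenase of their oxidation, at 5.00 (SE 0.33). Pdlim5 (5.61) and Ldb3 (5.03) are Z-disc proteins with PDZ and LIM domains, and Tmod1 (4.99) caps the pointed end of thin filaments. Jup (5.43) and Ctnnb1 (5.06) are the catenins of cell junctions. Nedd4 (5.73) is a ubiquitin ligase, Abcc9 (5.36) the sulfonylurea-receptor subunit of the ATP-sensitive potassium channel, Txnip (5.36) a thioredoxin-binding protein that limits glucose uptake, and Nipsnap2 (4.97) a mitochondrial protein. The standard errors of these 15 were 0.27 to 0.34, and the gene just outside was Igf2r at 4.94.

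In 10 of the 15 highest genes RNA was highest in library 3, and in 13 of 15 it was lowest in library 1. In the 15 lowest genes RNA was highest in library 1 in 11 and lowest in library 3 in 12. The role of RNA library 3 in these ratios was not tested beyond leaving it out. Genes with still higher ratios existed below the count minimum. Gja1, connexin 43 of gap junctions, had 942, 723 and 772 CPM of footprints against 35, 28 and 28 RNA counts (6.62, SE 0.29), the highest of its list of calcium handling and ion channels.

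**Figure D2:**
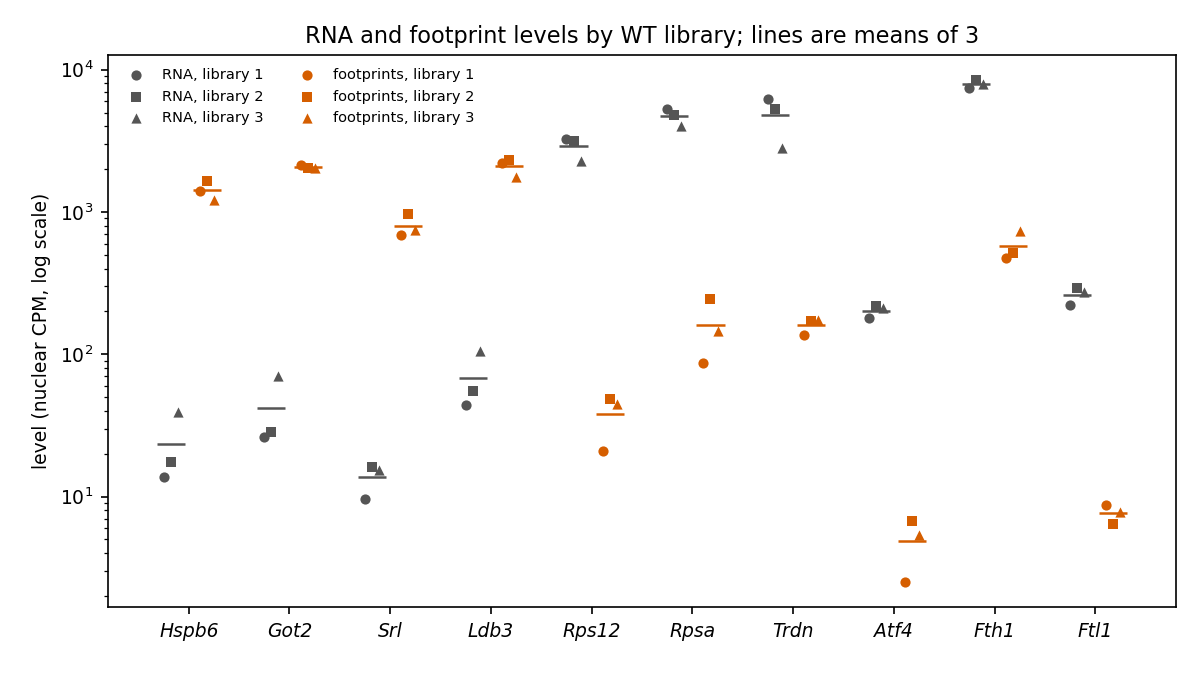
RNA (grey) and footprint (orange) levels of 10 named genes in each of the 3 WT libraries of an assay (nuclear CPM, logarithmic axis; marker shape gives the library number and short lines the means of 3). The assays do not overlap in any of the 10 genes: footprints are higher for Hspb6, Got2, Srl and Ldb3 and lower for Rps12, Rpsa, Trdn, Atf4, Fth1 and Ftl1.

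Contractile proteins were spread across the whole range. Of 39 tested sarcomere and Z-disc genes, 21 were higher and 12 lower in footprints. These shares lay near those of all genes, 47.0% higher and 26.7% lower. The list's median was 0.15 above that of all genes. Divided by length, it was -0.20. The most abundant RNA of the list was Myl2, the ventricular regulatory light chain, with 37332, 33598 and 32701 CPM of RNA and 12930, 12663 and 15674 CPM of footprints (-1.33, SE 0.22). Troponins Tnnt2 (-1.60, SE 0.22), Tnnc1 (-1.42, SE 0.22) and Tnni3 (-1.34, SE 0.22) were on the same side. The main adult heavy chain Myh6 had 11704, 12121 and 12700 CPM of RNA and 36711, 37691 and 32511 CPM of footprints (1.55, SE 0.22). Cardiac actin Actc1 was at 2.12 (SE 0.23), the giant spring protein Ttn at 2.46 (SE 0.23) and the intermediate filament desmin, Des, at 2.14 (SE 0.28).

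Smyd1, a muscle methyltransferase that binds myosin, was the highest of the list, with 777, 720 and 831 CPM of footprints and 38, 46 and 64 RNA counts (5.88, SE 0.28). Its mean RNA count lay just under the minimum of 50 for the 15 highest. Myh7b, a myosin heavy chain of slow muscle, was the lowest, with 968, 1047 and 852 RNA counts and 24, 24 and 25 footprint counts (-5.51, SE 0.28). Nexn, a filament-binding Z-disc protein, had 10024, 9492 and 5777 CPM of RNA and 349, 276 and 307 CPM of footprints (-4.73, SE 0.27). The myosin heavy chains Myh6 and Myh7b thus lay on opposite sides of the median, with Myh7, the fetal and slow form, at -1.04 (SE 0.23).

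Proteins of the respiratory chain that are made from nuclear genes were mostly low in complex I, less so in complexes II to V. Of 37 complex I genes, 27 were lower and 3 higher, with a median of -1.95 relative to all genes. Among all genes tested, 26.7% were lower and 47.0% higher. Ndufb9, an accessory subunit, had 4746, 4565 and 3370 CPM of RNA and 270, 266 and 385 CPM of footprints (-3.79, SE 0.26). Ndufs1, the largest core subunit, was the highest of the complex at 1.74 (SE 0.24), with 1182, 902 and 1193 CPM of footprints and 262, 285 and 459 CPM of RNA. Complexes II to V were less far below, with 18 of 40 lower, 9 higher and a median of -0.84. With TMM factors 24 were lower and 6 higher, where 2369 of all 6623 genes were lower and 2481 higher. Cox5b of cytochrome oxidase was at -3.52 (SE 0.25), and Cox4i1, the most abundant RNA of the list, at -2.22 (SE 0.23). The alpha subunit of ATP synthase, Atp5a1, was at 1.64 (SE 0.22) and its partner Atp5b at -0.14 (SE 0.21), which was not called. Both flavoprotein and membrane subunits of complex II were high: Sdha at 2.03 (SE 0.23), Sdhc at 4.21 (SE 0.29) and Sdhd at 4.49 (SE 0.29). After a straight-line adjustment for 3′ UTR length the median was -1.31 for complex I and -0.35 for complexes II to V.

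Mitochondrial ribosomal proteins, also nuclear genes, had a median of -1.08. Of 76 tested, 39 were lower and 12 higher, against 26.7% and 47.0% of all genes. With TMM factors 51 were lower and 9 higher, where 2369 of all 6623 genes were lower and 2481 higher. Mrpl30 was lowest at -3.76 (SE 0.26) and Mrpl50 highest at 2.62 (SE 0.30). The proteasome, which degrades proteins, had a median of -0.88 with 14 of 31 lower, against 26.7% of all genes, and 5 higher. With TMM factors 22 were lower and 2 higher. Its median was -0.20 after the adjustment for 3′ UTR length. Its range was narrow, from -1.76 for Psma4 to 1.66 for Psmd11.

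Enzymes of the mitochondrial matrix were mostly high. In the TCA cycle and pyruvate entry, 19 of 25 genes were higher in footprints and the other 6 were not called, while 47.0% of all genes were higher. With TMM factors, 17 were higher and 2 lower, against 2481 higher and 2369 lower among all 6623 genes. The list's median was 1.83 above that of all genes, and 2.04, 2.06 and 1.40 in pairs 1, 2 and 3. Got2, given above, was the highest of the list. Ogdh, of the 2-oxoglutarate dehydrogenase complex, had 4675, 4484 and 4320 CPM of footprints and 116, 140 and 281 CPM of RNA (4.76, SE 0.29). Citrate synthase, Cs, was at 3.21 (SE 0.24) and Pdha1 of pyruvate dehydrogenase at 3.63 (SE 0.24). Idh2, the most abundant RNA of the list, had 2599, 2242 and 2732 CPM of footprints and 2326, 2175 and 2782 CPM of RNA, which overlap (0.06, SE 0.22).

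Fatty acid oxidation, the main fuel route of the adult heart, had 21 of 27 genes higher and 3 lower, with a median of 0.94. In the main fit 47.0% of all genes were higher and 26.7% lower. TMM factors gave 17 higher and 5 lower for this list, and 2481 higher and 2369 lower among all 6623 genes. Lpl, which releases fatty acids from lipoproteins, was at 4.74 (SE 0.27) and Hadha, of the trifunctional protein, at 2.36 (SE 0.24). Fabp3, the heart fatty-acid carrier, had 4114, 3677 and 5241 CPM of footprints and 2853, 2444 and 3496 CPM of RNA (0.57, SE 0.21). Etfb, which passes electrons from the dehydrogenases, was the lowest at -2.65 (SE 0.24). Glycolysis had 14 of 18 higher and 2 lower and a median of 0.48. With TMM factors 9 were higher and 4 lower. Slc2a4, the insulin-responsive glucose carrier, led at 4.46 (SE 0.29), and Pgam2, the muscle phosphoglycerate mutase, was lowest at -1.81 (SE 0.23).

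Genes of calcium handling and ion channels were mostly high: 23 of 32 were higher and 3 lower, with a median of 1.87. Among all genes tested, 47.0% were higher and 26.7% lower. TMM factors gave 22 higher and 4 lower for this list, and 2481 higher and 2369 lower among all 6623 genes. Without replicate 3 its median was 1.39, and at an average of 50 counts in both assays 0.97. Atp2a2, the calcium pump SERCA2 of the sarcoplasmic reticulum, had 29355, 20382 and 23007 CPM of footprints and 868, 819 and 2032 CPM of RNA (4.41, SE 0.29). Its inhibitor phospholamban, Pln, had 4565, 3760 and 4244 CPM of footprints and 222, 197 and 354 CPM of RNA (4.07, SE 0.26). The store protein Casq2 was at 4.65 (SE 0.27), the sodium-calcium exchanger Slc8a1 at 5.53 (SE 0.27), and the release channel Ryr2 at 1.15 (SE 0.25). Triadin, Trdn, which anchors Casq2 to the release channel, was the lowest of the 3 lower genes, with 6256, 5276 and 2803 CPM of RNA and 137, 172 and 175 CPM of footprints (-4.82, SE 0.30).

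**Figure D3:**
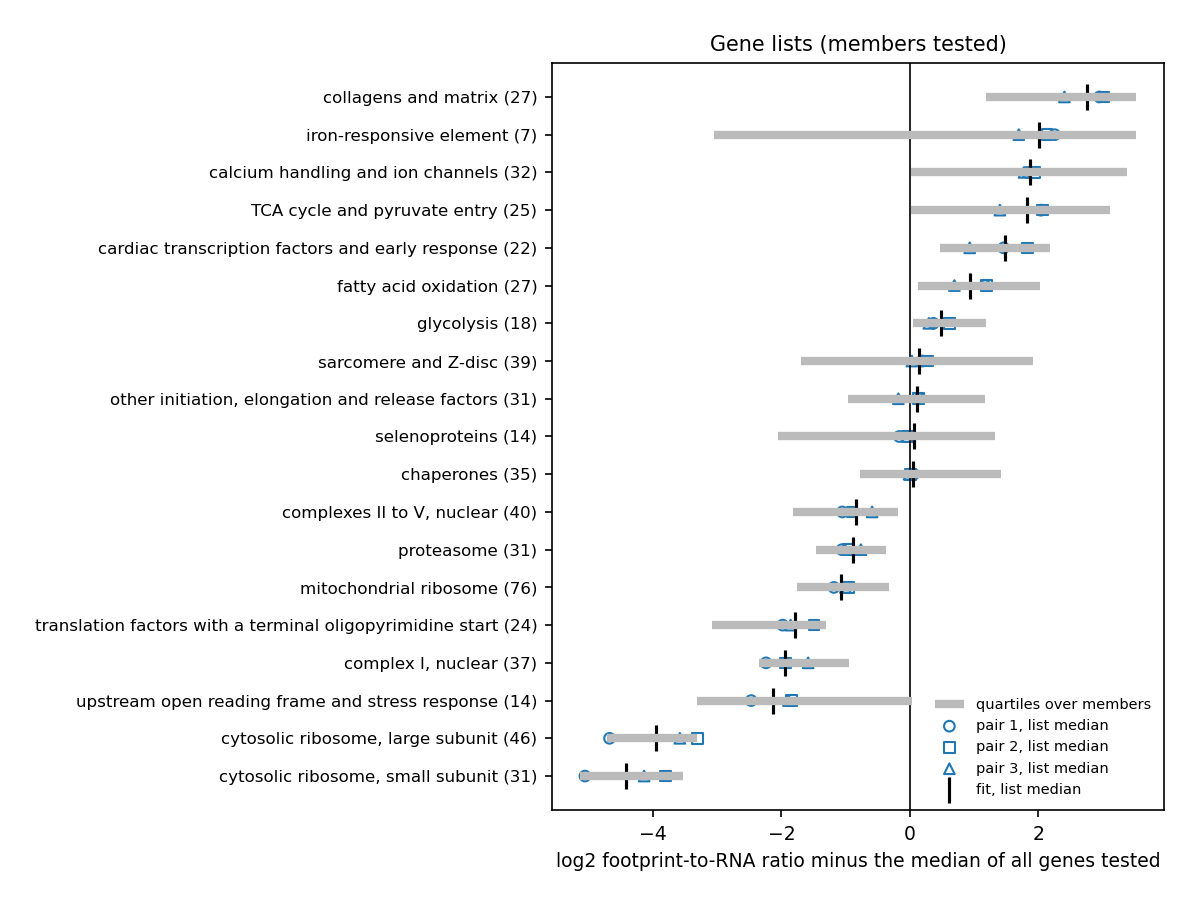
Median log2 footprint-to-RNA ratio of each gene list minus the median of all 6623 genes, in the fit (black tick) and in each same-numbered pair (open symbols), with quartiles over members in grey and the number tested in brackets. Both ribosomal lists sit lowest, at -4.41 and -3.95, and collagens and matrix highest, at 2.77; the pairs lie farthest apart in the ribosomal lists.

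Matrix genes stood highest as a list. Of 27 tested, 23 were higher and 1 lower, with a median of 2.77 above that of all genes, and 22 were higher with TMM factors. Bgn, the proteoglycan biglycan, had 632, 660 and 669 CPM of footprints and 21, 39 and 79 RNA counts (5.83, SE 0.32). The basement-membrane collagens Col4a1 and Col4a2 were at 3.54 (SE 0.25) and 4.49 (SE 0.26), fibronectin Fn1 at 4.38 (SE 0.28) and fibrillin Fbn1 at 4.83 (SE 0.28). Markers of other cells differed by list, against 47.0% of all genes higher and 26.7% lower. In footprints 6 of 7 fibroblast, 6 of 8 endothelial, 5 of 7 smooth muscle and pericyte and 7 of 10 macrophage markers were higher. Of the adipocyte markers 1 of 4 was higher and 1 lower (median -0.88), and all 5 erythroid markers were lower (median -2.56). The smooth muscle median was 1.59, and -0.26 at an average of 50 counts in both assays. Cdh5, the endothelial cadherin, was at 5.82 (SE 0.28). Egfl7, a secreted endothelial protein, ran against its list, with 884, 1023 and 1021 RNA counts and 29, 33 and 40 footprint counts (-5.07, SE 0.27).

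Transcription factors of the heart and early-response genes had 17 of 22 higher, against 47.0% of all genes, and 1 lower, with a median of 1.48. The median was 0.39 at an average of 50 counts in both assays. Mef2d, a muscle factor, was at 4.35 (SE 0.27), Ppargc1a, a coactivator of mitochondrial genes, at 4.15 (SE 0.29) and Tbx5 at 2.47 (SE 0.30). A further 11 of the 33 listed genes did not reach the filter. Gata4, a core cardiac factor, had 524, 521 and 451 footprint counts and 2, 7 and 10 RNA counts, so it was not tested. Chaperones had a median of 0.04 relative to all genes, with 18 of 35 higher and 9 lower, near the 47.0% and 26.7% of all genes. Below the small heat-shock proteins, their co-chaperone Bag3 was at 3.27 (SE 0.28), and Hsp90aa1, the inducible Hsp90, was the lowest at -2.53 (SE 0.26). Selenoproteins, which recode a stop codon, were split, with 7 of 14 higher and 6 lower, against the same shares of all genes. Selenop, the secreted selenium carrier, was highest at 2.66 (SE 0.32) and Selenow, a small muscle selenoprotein, lowest at -2.71 (SE 0.24).

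A list of genes with upstream open reading frames and of stress-response genes held some of the lowest single genes. It mixes both kinds, so its counts are not those of upstream-frame control alone. Of the 28 listed, 14 were tested, with a median of -2.13. Of these, 8 were lower and 3 higher, against 26.7% and 47.0% of all genes. Atf4, the transcription factor of the integrated stress response, had 179, 217 and 211 CPM of RNA and 12, 25 and 24 footprint counts, or 2.50, 6.68 and 5.38 CPM (-5.43, SE 0.30). Its 5′ UTR holds 3 ATG triplets. Below are the beginnings of the reading frames of the 2 nearest to the start codon, chosen because they show a short frame and an overlapping one, with the ATG and, where shown, the stop codon in capitals (GENCODE M21, GRCm38).
Atf4 short frame: ATGgcgtatTAG
Atf4 overlapping frame: ATGgcgctcttcacgaaatccagcagcagt
The first of these lies at chr15:80255582-80255593 on the plus strand, codes for 3 codons and starts 196 bases before the Atf4 start codon. The other spans an exon junction, has 59 codons and runs 83 bases past the start codon in another frame.

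Ddit3, a stress factor downstream of Atf4, was at -4.31 (SE 0.31), Ppp1r15a, a phosphatase subunit that ends the stress response, at -3.53 (SE 0.34) and Atf5, a factor related to Atf4, at -3.04 (SE 0.29). The tables do not say whether footprints on upstream frames were counted. Azin1, the antizyme inhibitor, and Cat, catalase, were high at 2.72 (SE 0.32) and 4.77 (SE 0.32). The list's position depends on the filter. Ddit4, a stress-induced inhibitor of mTORC1, had 228, 238 and 223 footprint counts and 4, 2 and 11 RNA counts and was left out, and when a gene needed to pass in only 1 assay the list's median was 1.30. Without replicate 1 it was -0.98. Over all genes, the median log2 ratio was 0.65 with no ATG in the 5′ UTR (3374 genes), 0.40 with 1, 0.33 with 2 or 3 and 0.16 with at least 4 (675 genes). An ATG occurred in 48.7% of annotated 5′ UTRs.

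Ferritin, the iron store, is the textbook case of a hairpin in the 5′ UTR, the iron-responsive element, that blocks initiation when iron is scarce. Its loop is shown for both subunits because both were low, with the loop letters CAGTGN in capitals (GENCODE M21, GRCm38).
Fth1: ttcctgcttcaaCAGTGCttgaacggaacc
Ftl1: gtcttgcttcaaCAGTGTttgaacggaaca
They lie at chr19:9982732-9982761 on the plus strand and chr7:45459778-45459807 on the minus strand. CAGTG alone is common, and occurred on the sense strand of 21.8% of annotated 5′ UTRs. The heavy chain Fth1 had 7400, 8426 and 7894 CPM of RNA and 473, 514 and 739 CPM of footprints (-3.81, SE 0.25). The light chain Ftl1 had 801, 1028 and 1075 RNA counts and 42, 24 and 35 footprint counts (-5.07, SE 0.28). Both have processed pseudogenes, which makes their counts uncertain.

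Other genes with such elements were not uniformly low. Epas1, the hypoxia factor HIF-2 alpha, also with a 5′ element, had 467, 544 and 635 CPM of footprints and 22, 25 and 39 RNA counts (6.16, SE 0.29). Alas2, of heme synthesis in red cells, was at -1.27 (SE 0.24). Tfrc, the transferrin receptor, whose elements lie in the 3′ UTR and govern mRNA decay, was at 5.07 (SE 0.30) and Slc11a2, an iron carrier, was called higher as well. In all, 4 of 7 were higher and 3 lower, against 47.0% and 26.7% of all genes. The median of 2.02 turned to -1.78 when an average of 50 counts was asked for in both assays.

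Some low genes outside the ribosome have long stretches rich in A within the coding sequence. The 24 coding bases with the most A are shown for 3 of them, with A in capitals (GENCODE M21, GRCm38).
Zcrb1: AAAgAAgAAAgAgAAgAAgAAgAA
Eif5: AAAgAAAgAAAAggAAAAgAAAAA
Trdn: AAAAAAAcAggAAAAgAAAgAAAA
They hold 17, 19 and 19 A. They lie at chr15:93387777-93387800 on the minus strand for Zcrb1 and at chr12:111541728-111541751 on the plus strand for Eif5. The Trdn window crosses an exon junction. The most A in a window had a median of 13 both in the 15 highest genes (8 to 16) and in the 15 lowest (10 to 18).

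A coding window with at least 18 A occurred in 268 of 6574 annotated genes tested (4.08%). Their median log2 ratio was -1.39. Of the 268, 170 (63.4%) were lower in footprints and 53 (19.8%) higher, against 26.7% and 47.0% of all genes. In the other classes of A content the median ran from 0.25 to 0.86. Among the 209 genes of this class with a 3′ UTR over 600 bases the median was -1.41, and 0.58 to 1.44 in the other classes so limited. There the class had 21.8 CPM of RNA per coding kilobase, against 6.65 to 13.1 in the others. Its footprints were at 9.02 CPM per coding kilobase, against 12.9 to 33.9. The parts of 3′ UTR length and A content in these values were not tested. Over all 268 genes of the class the median was -1.52, -1.61 and -0.90 in pairs 1, 2 and 3. Of the 12 such genes in the lists, 9 were lower, 2 higher and 1 not called. Eif5, Eif5b and Eif2s2, which act in translation initiation, were at -4.56 (SE 0.29), -4.52 (SE 0.27) and -4.39 (SE 0.28). Eif5 had 1285, 1259 and 553 CPM of RNA and 40.9, 40.4 and 41.5 CPM of footprints, so its RNA was lowest in library 3 and its footprints differed little. Ttn and Mef2a had such a window and were higher, at 2.46 and 3.76. These classes were looked at after values of the named genes had been seen.

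**Figure D4:**
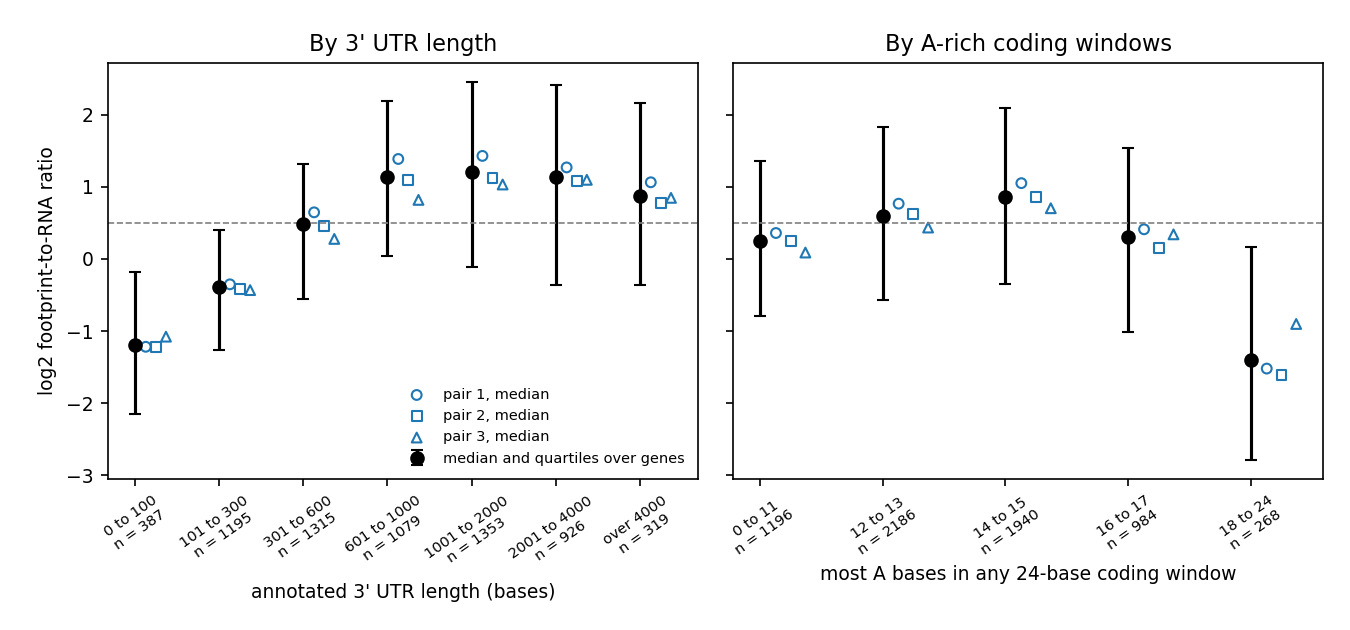
Log2 footprint-to-RNA ratio by annotated 3′ UTR length (left) and by the most A bases in any 24-base coding window (right), with medians and quartiles over genes (black) and the median of each pair (open symbols); the dashed line is the median of all genes. Ratios rise from a median of -1.19 in the shortest 3′ UTR class to 1.21 at 1001 to 2000 bases, and the class of at least 18 A stands at -1.39.

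Of 4 lengths and shares examined, that of the 3′ UTR had the highest correlation with the ratio. Across 6574 genes Spearman's rho was 0.35 with 3′ UTR length, 0.22 with coding length, 0.01 with 5′ UTR length and -0.11 with the coding share of the transcript. The median log2 ratio was -1.19 in 387 genes with at most 100 bases of 3′ UTR, -0.38 at 101 to 300 bases and 0.48 at 301 to 600. It was 1.13 to 1.21 from 601 to 4000 bases and 0.87 beyond. RNA per coding kilobase had a rho of -0.32 with 3′ UTR length and footprints per coding kilobase -0.08. The median RNA level fell by class from 60.6 to 8.37 CPM per coding kilobase between the shortest class and 1001 to 2000 bases, while that of footprints went from 34.5 to 20.6. The genes and their annotation are shared between these measures, and the region of the transcript that was counted is not given in the sources used here. The part of 3′ UTR length in the ratio of any single gene was not tested.

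Both ends of the order differed in 3′ UTR length. The 15 highest genes had 3′ UTRs of 750 to 3090 bases with a median of 1328, and the 15 lowest had 0 to 1532 with a median of 49. After the straight-line adjustment, in which the log2 ratio rose by 0.34 per doubling of length, the ribosomal lists were at -3.17 (large) and -3.36 (small) relative to all genes. The TCA cycle was then at 1.91 and matrix genes at 2.62. Relative to the line, Hspb6 was at 5.42, Rps12 at -5.29 and Trdn, with a 3′ UTR of 2191 bases, at -5.91. Bag1 and Gm20594 have an annotated 3′ UTR of 0 bases, which may be incomplete annotation. Relative to the line they were at -2.88 and -3.75, against ratios of -5.55 and -6.42.

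The filter on both assays left out further genes. Of 10495 genes that passed in at least 1 assay, 3335 passed in 1 assay and had more footprints, and 537 passed in 1 assay and had more RNA. Replication-dependent histones, whose mRNAs end in a stem-loop and not in a poly(A) tail, could not be compared gene by gene: none of the 65 in the tables was tested, and many had few or no counts in either assay. Their summed level was 311 to 502 CPM in the 3 footprint libraries and 8.29 to 27.9 CPM in the RNA libraries, which had been selected for poly(A). Hist1h1c, a linker histone, had 333, 441 and 460 footprint counts and 5, 6 and 49 RNA counts.

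Ratios in the Rpl3l-/- animals were close to those in WT. In the Rpl3l-/- libraries, fitted alone, 5289 of 6931 genes (76.3%) were called, and the log2 ratio correlated with that of WT at 0.98 across 6299 genes. All 15 highest WT genes were higher there, with log2 ratios of 4.41 to 5.98, and all 15 lowest were lower, from -6.96 to -4.71. Of genes tested in Rpl3l-/-, 46.2% were higher and 30.1% lower. Hspb6 was at 5.27 and Rps12 at -6.55. Rpl3l itself fell from the diagonal, at -1.80 in WT and -3.59 in Rpl3l-/-, where its RNA and footprints were both low. These libraries were made by the same protocol, so they share its features.

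**Figure D5:**
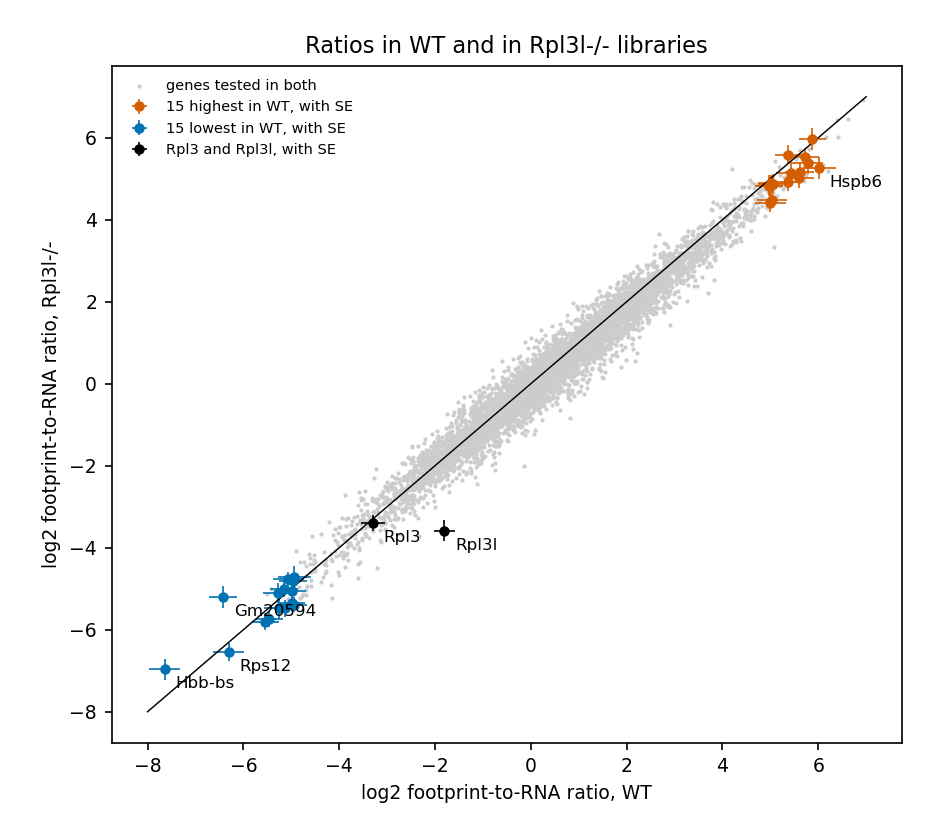
Log2 footprint-to-RNA ratio in WT against that in Rpl3l-/- libraries for genes tested in both, with the 15 highest and 15 lowest WT genes, Rpl3 and Rpl3l marked and their standard errors drawn. Points follow the diagonal (r of 0.98 over 6299 genes), and Rpl3l lies below it, at -1.80 in WT and -3.59 in Rpl3l-/-.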

How the data were processed

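The deposited values are raw counts, which the authors made, whole numbers per transcript name with 1 name per gene; cutadapt 1.18 and Bowtie2 2.4.2 are listed, per the submitters' processing notes. The counting program, region counted, strand use and genome build are not given in the sources used here. Of 21669 names, 21428 (98.9%) matched GENCODE M21 (GRCm38), which gave lengths and sequences.

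Genes had to pass edgeR's filterByExpr (minimum count 10) in the 3 libraries of each assay. Counts were scaled on nuclear totals without further factors. edgeR 4.0.16 (R 4.3.3) fitted assay with replicate number as a block, with Benjamini-Hochberg adjustment at 0.05. P-values and standard errors (SE) come from the quasi-likelihood fit and measure the spread between these triplicates left after the block. The floor of 3 counts covers counting error only. On simulated counts the fit recovered 54% of 2-fold and all 4-fold changes and called 2 unchanged genes. It called 0 of 6555 genes when none changed. The simulation had few changed genes and no replicate effects, unlike the data, so it does not give error rates for the calls here.

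Named genes are the 15 highest and 15 lowest called genes averaging 50 counts or more in each assay. All 3 pairs had to lie on the same side of the median. The fitted ratio per length had to lie on that side of its own median. Named as well are the highest, lowest and most abundant gene of each list, and Rpl3 and Rpl3l. Members and lists were chosen with earlier results of these data known. Alternatives changed scaling, filter, tool (DESeq2 1.42.0), block, length and replicates. Values of 2 genes are not reported here.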

Additional observations from a re-analysis of the deposited data

Results flagged for a closer look

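Names encoded in mitochondrial DNA were left out of every ratio, and they held a signal of their own. They took 56.9%, 58.2% and 53.4% of all counts in WT RNA libraries 1, 2 and 3 and 3.16%, 2.28% and 4.08% in the footprint libraries. The shares do not overlap between the assays.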

How the results depend on the processing

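Replicate numbers were a block in the fit although no label ties a number to 1 animal. Deviations of same-numbered libraries correlated at 0.08, 0.11 and 0.05 and of others at -0.07 to -0.02, so each library correlated best with its own number, a hint from the data only. With no replicate block 4803 genes were called, 3063 higher and 1740 lower. The share of calls that were higher was 51.2% with TMM factors, 50.1% with median-of-ratios factors and 50.2% with DESeq2, which called 1120 genes higher beyond 2-fold. With mitochondrial names kept, 4689 genes were higher and 698 lower (87.0% higher), 3669 and 338 beyond 2-fold, and 6 lower genes turned positive: Eno3 (0.49), Mef2c (0.47), Hspa8 (0.045), Timp2 (0.55), Ckm (0.36) and Cfd (0.33). Per length 1136 genes were lower (77.8% higher; 613 lower beyond 2-fold), and Mef2c (0.10), Timp2 (1.67) and Ckm (0.26) turned positive. Passing in 1 assay was enough for 8217 calls, 6112 higher (74.4%; 4868 beyond 2-fold), no filter gave 8552, 6402 higher (74.9%; 5026), and an average of 50 counts in both assays gave 2736, 1442 higher (52.7%; 772).

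List medians relative to all genes moved as follows, and the cause was not tested. With 1 assay passing, calcium handling was at 2.27, cardiac factors 2.06, selenoproteins 0.82, upstream-frame genes 1.30 and adipocyte markers 0.13, and with no filter at 2.09, 1.96, 0.79, 0.68 and 1.12. With an average of 50 counts, calcium handling was at 0.97, cardiac factors 0.39, sarcomere 0.011, mitochondrial ribosome -1.21, upstream-frame genes -1.15, iron-responsive genes -1.78, selenoproteins -1.03, other factors -0.41 and smooth muscle markers -0.26. Per length, TOP factors were at -2.13, sarcomere -0.20, mitochondrial ribosome -0.56, calcium handling 2.47, upstream-frame genes -1.62, iron-responsive genes 1.59, selenoproteins 0.18 and chaperones 0.29. The adjustment for 3′ UTR length, chosen after seeing the data, gave -3.17 and -3.36 for the ribosomal subunits, -1.47 for TOP factors, 0.79 for sarcomere, -1.31 and -0.35 for complexes I and II to V, 1.96 for calcium handling, -0.16 for selenoproteins, -0.20 for the proteasome and 0.27 for chaperones. Spearman's rho with 3′ UTR length was 0.26 and with coding share -0.016 at an average of 50 counts, and 0.32 and -0.10 in pair 2, while rho with 5′ UTR length was 0.020 in pair 1 and -0.0013 in pair 2.

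Without 1 replicate, 4440 to 4954 genes were called. Medians then ranged from -1.10 to -0.94 for the mitochondrial ribosome, -2.27 to -0.98 for upstream-frame genes, 0.043 to 0.18 for selenoproteins, -0.044 to 0.052 for chaperones, -0.023 to 0.027 for other factors, -0.014 to 0.17 for sarcomere, 1.39 to 1.87 for calcium handling and -1.05 to -0.79 for the proteasome. Of the named genes' values under all alternatives, 1216 kept direction and call, 43 lost the call, 29 gained it and 9 reversed. Depth limits the ratios of genes with few RNA counts.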
